A study of Mus musculus with 24 samples.

Results

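The interferon-inducible GTPases are a family of large and mid-sized GTP-binding proteins that cells make in response to interferons. The genes described here were fixed by symbol: *Gbp2*, *Gbp3*, *Gbp5* and *Gbp7* of the guanylate-binding proteins, and *Irgm1*, *Irgm2*, *Igtp*, *Iigp1*, *Ifi47* and *Gm4841* of the immunity-related GTPases. Each symbol was matched to the identifiers of the count table, and 9 of the 10 genes were found among 41388 genes. The identifier of *Gbp5* in the annotation used for matching was not among the features of the table, so no value is given for it.

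RNA was sequenced of heart tissue, a portion of each organ, from male wild-type Balb/c (BALB/cAnNCrl) mice, 4 mice with experimental autoimmune myocarditis (EAM) and 4 control mice at each of 3 days after the first immunization, D10, D15 and D21, 24 hearts in all. EAM mice, 8 to 10 weeks old at immunization, received 100 µg of a cardiac myosin heavy chain peptide with complete Freund's adjuvant at days 0 and 7, and pertussis toxin at day 0. Control mice received the same adjuvant and toxin with saline in place of the peptide, so that every mouse had been exposed to mycobacterial adjuvant. Hearts were chosen for sequencing, as far as possible, by the presence of inflammation, so the EAM groups need not be a random draw of immunized mice. At D10 this criterion was not met, since the paper found raised cardiac leukocytes (CD45+ cells) or raised cardiac troponin I in no EAM mouse of that day.

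Guanylate-binding proteins gather on the membranes of vacuoles that hold microbes, and on bacteria in the cytosol, and help to release microbial ligands to inflammasomes. Among the immunity-related GTPases, *Iigp1* and *Ifi47* encode effectors that load onto such vacuoles, whereas *Irgm1*, *Irgm2* and *Igtp* encode regulators that stay on the cell's own membranes and hold the effectors in their inactive state. Interferon-gamma drives many of these genes through a palindromic promoter element called GAS, and through IRF1, which binds an element called ISRE.

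The promoter sequences show how near to the start of these genes such letters lie. RefSeq promoters (build GRCm38.p6, 250 bases before to 50 after a start) were searched for 8 of the 10 genes, with 9 starts, since *Gbp3* has 2. Promoters of *Iigp1* and *Gm4841* were left out of the search, so the counts of genes with a match do not cover them. Both strands were searched for GAS as TTCNNNGAA and for ISRE as GAAA, any 2 bases and GAAA, and overlapping matches were kept. ISRE letters were found in 7 of the 8 genes and GAS letters in 4, *Gbp5*, *Gbp7*, *Igtp* and *Irgm2*, each of which also held ISRE letters. Of all 32851 promoters of the same length, 8.3% held GAS letters, 3.44% ISRE letters and 0.454% both. *Ifi47* and the second start of *Gbp3* held neither. A match of letters is not a measured binding site, and the mice were BALB/c whereas the sequence is that of the reference strain. The sequences below show the arrangement, 5′ to 3′ in the direction of each gene, with GAS and ISRE letters in capitals. For *Gbp7*, *Gbp3*, *Igtp* and *Irgm2* they are the 110 bases before the start, and for *Gbp2* and *Irgm1*, whose matches lie within an annotated exon, 30 bases around the match. They are *Gbp7* at chr3:142530226-142530335 (plus strand), *Gbp3* at chr3:142559934-142560043 (plus), *Gbp2* at chr3:142620594-142620623 (plus), *Irgm1* at chr11:48871428-48871457 (minus), *Igtp* at chr11:58199446-58199555 (plus), *Irgm2* at chr11:58214867-58214976 (plus) and, for comparison, *Tgtp2*, a further gene of the family that is no member, at chr11:49064213-49064322 (minus).
Gbp7: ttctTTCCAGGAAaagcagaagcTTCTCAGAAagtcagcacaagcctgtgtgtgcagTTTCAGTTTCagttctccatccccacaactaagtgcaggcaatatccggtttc
Gbp3: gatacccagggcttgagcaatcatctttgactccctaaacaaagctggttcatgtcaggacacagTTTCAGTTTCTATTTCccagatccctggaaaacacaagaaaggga
Gbp2: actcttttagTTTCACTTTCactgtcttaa
Irgm1: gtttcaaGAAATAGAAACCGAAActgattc
Igtp: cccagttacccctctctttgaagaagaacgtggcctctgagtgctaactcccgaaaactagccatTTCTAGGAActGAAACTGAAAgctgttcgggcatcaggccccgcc
Irgm2: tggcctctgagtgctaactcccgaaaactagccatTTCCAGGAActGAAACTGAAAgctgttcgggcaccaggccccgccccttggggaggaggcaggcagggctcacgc
Tgtp2: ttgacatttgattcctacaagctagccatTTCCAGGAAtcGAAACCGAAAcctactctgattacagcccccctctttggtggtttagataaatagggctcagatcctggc

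In *Igtp* and *Irgm2* the ISRE letters began 11 bases after the first base of the GAS letters. The distance was noticed in these sequences and then searched for, and 5 of the 32851 promoters had it, those of *Igtp*, *Irgm2*, *Tgtp1*, *Tgtp2* and *Gm12185*, all of them GTPase genes on chromosome 11. The printed stretches of *Igtp* and *Irgm2* shared an identical run of 38 bases, so they are copies of a like sequence and not independent examples. The longest run shared by any other pair of the members' stretches was 13 bases, between *Gbp3* and *Gbp7*. *Gbp3* and *Irgm1* each held 2 overlapping ISRE matches.

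**Figure D1:**
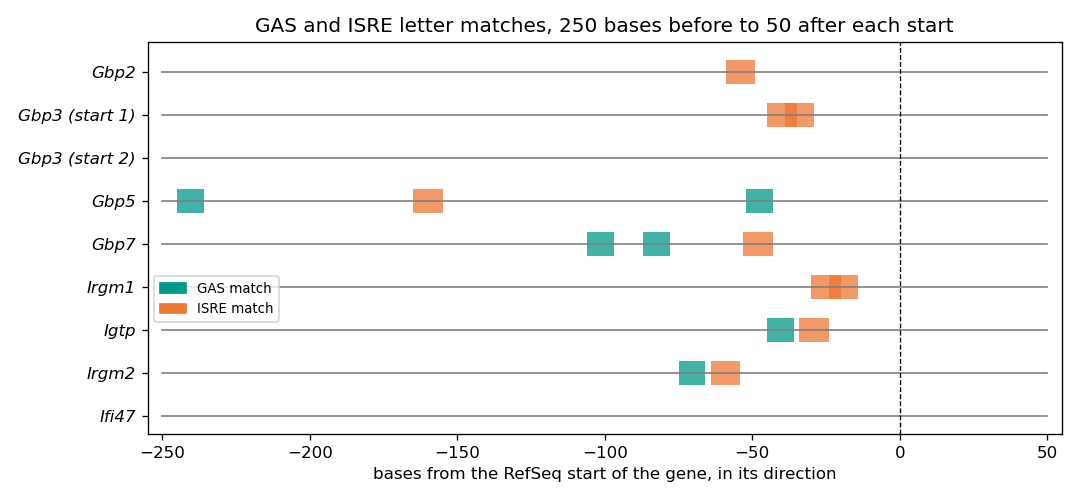
Positions of GAS (green) and ISRE (orange) letter matches, in bases from the RefSeq start, in the 9 promoters of 8 member genes. Matches in 7 of the genes lie before the start, GAS and ISRE stand side by side in Igtp and Irgm2, and Ifi47 and the second start of Gbp3 have no match in the window.

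The genes lie in clusters. In GENCODE M21 (GRCm38.p6), *Gbp7* (chr3:142530342-142550149), *Gbp3* (chr3:142560026-142573209) and *Gbp2* (chr3:142620602-142638008) are neighbours on the plus strand of chromosome 3. *Irgm1* (chr11:48861968-48871683, minus strand) and *Ifi47* (chr11:49076587-49096974, plus) form a group on chromosome 11, and *Igtp* (chr11:58199556-58207591, plus) and *Irgm2* (chr11:58199618-58222782, plus) overlap each other farther along the same chromosome. *Iigp1* and *Gm4841* are on chromosome 18. All 9 are annotated as protein-coding. Related genes can share reads, and the share of 75-base words of a gene's transcripts that also occur in another gene was 0% for *Irgm1* and *Iigp1*, 7.80% for *Igtp* (with *Irgm2*), 4.78% for *Irgm2* and at most 11.3%, for *Gbp7*.

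The 24 libraries held 15814863 to 24980864 counted reads, and the lowest number of reads on a member in any library was 30, for *Gm4841*. Values are CPM, a gene's reads as parts of 1000000 reads of its library, after TMM scaling, a factor per library that evens out differences in RNA composition. The leukocyte marker *Ptprc*, which encodes CD45, was at 15.0 to 38.6 CPM in the 12 control hearts and at 244 to 306 CPM in the D15 EAM hearts. Summed cardiomyocyte marker levels were at 23097 to 29862 CPM in controls and at 6655 to 17694 CPM at D15 in EAM, so the tissue held heart muscle in every sample. The 4 EAM libraries of D21 carried another library code than the other 20, so that this code and EAM at D21 cannot be told apart. In bulk tissue, a change in the number of cells of a type and a change in RNA per cell cannot be told apart either.

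At D15 every measured member rose. Of the 9, 9 passed the test (edgeR's quasi-likelihood test, with a false discovery rate, FDR, under 0.01 and a change of 2-fold or more), against a background of 18.1% of 15693 genes called higher and 12.9% called lower. The EAM and control hearts did not overlap for any of them, which was so for 34.6% of all genes in the same direction. The median log2 fold change of the members was 3.45, against 0.02 over all genes tested. With libraries scaled to their total counts instead, both medians moved up, to 3.59 and 0.17, and the 9 calls stood.

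Among the guanylate-binding proteins, *Gbp2* was at 35.7, 30.5, 31.8 and 35.9 CPM in the D15 control hearts and at 399, 346, 477 and 399 CPM in the EAM hearts. The log2 fold change was 3.63 ± 0.12 (SE, adjusted p = 1.9e-08, edgeR), and the spread among the EAM hearts was small beside the step between the groups. *Gbp3* was at 25.2 to 35.1 CPM in controls and at 136 to 202 CPM in EAM (log2 fold change 2.56 ± 0.14). *Gbp7* was at 42.1 to 61.7 CPM in controls and at 239 to 354 CPM in EAM (log2 fold change 2.62 ± 0.17). The step was thus smaller for *Gbp3* and *Gbp7* than for *Gbp2*, although all 3 control groups were tight; the differences between genes were not tested.

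Among the regulators, *Irgm1* was at 65.8, 39, 33.5 and 45.9 CPM in the D15 control hearts and at 491, 389, 545 and 534 CPM in the EAM hearts (log2 fold change 3.45 ± 0.22). *Igtp* was at 110, 38.2, 16.8 and 62.2 CPM in controls and at 629, 517, 711 and 676 CPM in EAM (log2 fold change 3.52 ± 0.49). *Irgm2* was at 120, 56.7, 31.5 and 75.1 CPM in controls and at 335, 259, 452 and 368 CPM in EAM (log2 fold change 2.36 ± 0.36, adjusted p = 0.000269, edgeR). The larger standard errors of *Igtp* and *Irgm2* went with their controls, in which replicate 1 was highest and replicate 3 lowest for all 3 regulators.

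Among the effectors, *Iigp1* was at 221, 82.5, 46.2 and 143 CPM in the D15 control hearts and at 908, 658, 1237 and 953 CPM in the EAM hearts (log2 fold change 2.97 ± 0.45). *Ifi47* was at 7.30 to 9.07 CPM in controls and at 130 to 207 CPM in EAM (log2 fold change 4.37 ± 0.16). *Gm4841*, a gene of the same family, was at 40.3, 6.62, 2.12 and 14.9 CPM in controls and at 569, 427, 716 and 632 CPM in EAM (log2 fold change 5.23 ± 0.76, adjusted p = 0.000193, edgeR). *Gm4841* thus had both the largest step and the widest control group, whereas the controls of *Ifi47* lay close together. With any 1 heart left out, the log2 fold change of *Gm4841* ran from 4.86 to 6.26.

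**Figure D2:**
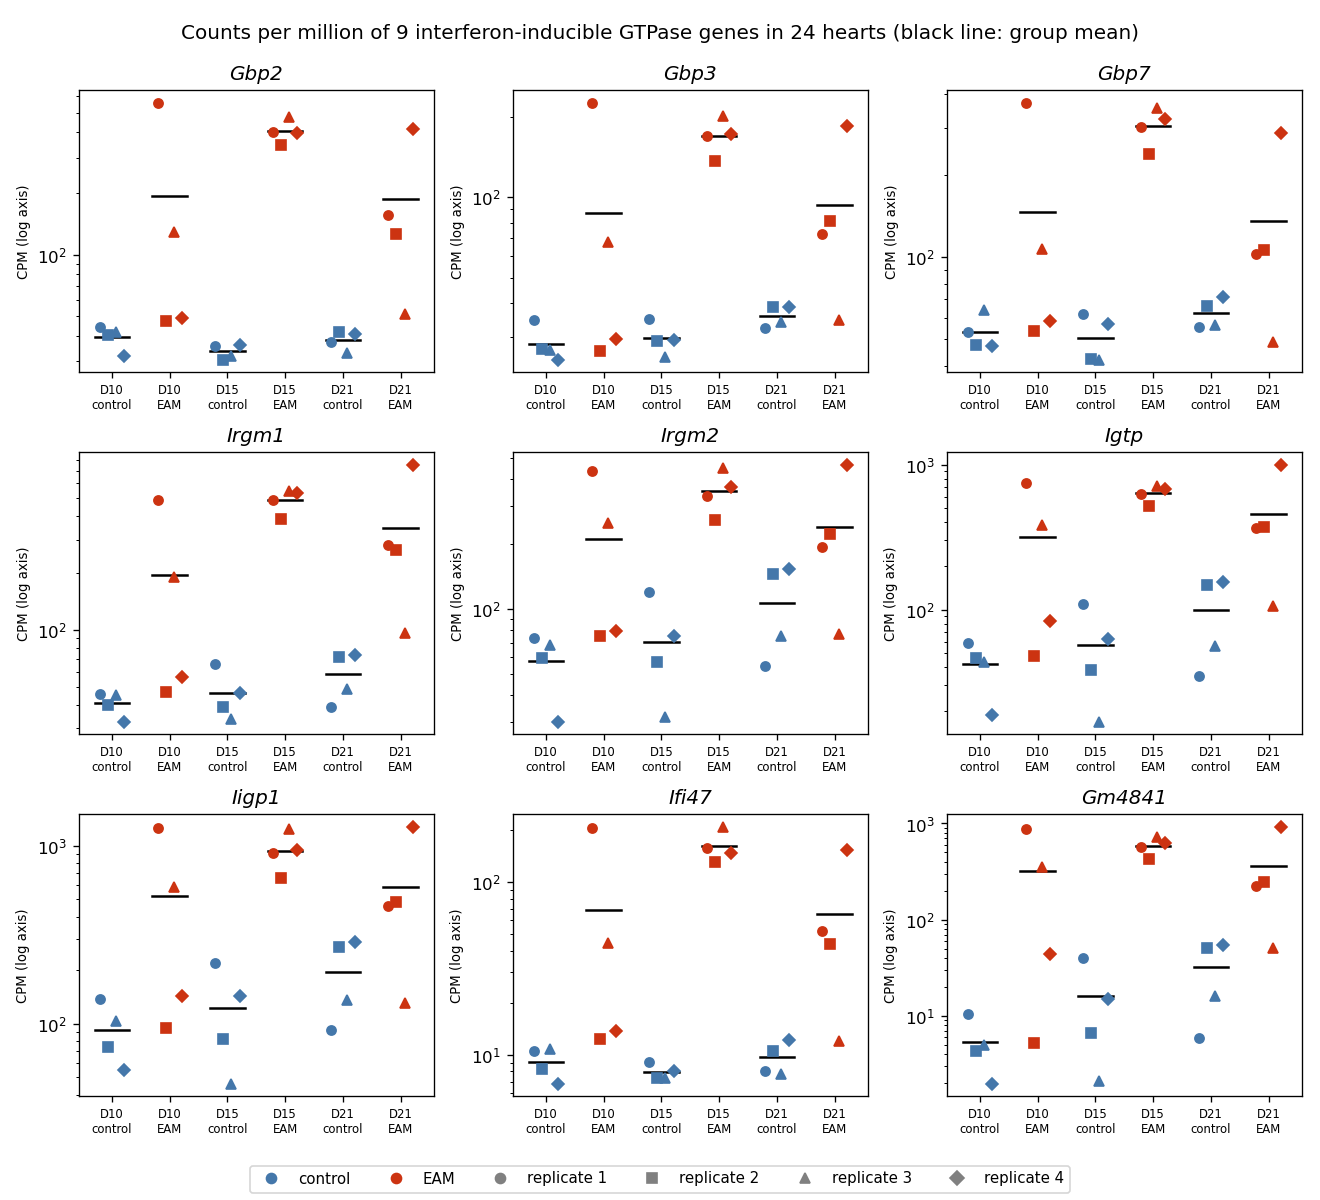
CPM (log axis) of the 9 measured genes in each of 24 hearts, controls in blue and EAM in red, 4 replicates a group marked by shape, with the group mean as a black line. All D15 EAM hearts stand above all D15 controls, D10 EAM spreads from the control level (replicate 2) to the D15 level (replicate 1), and D21 EAM spreads likewise from replicate 3 to replicate 4.

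Levels can be compared between genes only per length, and CPM were therefore divided by the merged exon length in kilobases. In the D15 control hearts *Igtp* had the highest mean, 28 ± 19.7 CPM per kb (SD, n = 4), and *Ifi47* the lowest, 3.21 ± 0.335. In the D15 EAM hearts *Igtp* was again highest at 313 ± 41.7 CPM per kb, followed by *Gm4841* at 206 ± 42.9, *Iigp1* at 161 ± 40.8 and *Gbp2* at 161 ± 21.3. The last 3 did not differ beyond their spread. *Gm4841* had stood at 5.63 ± 6.01 CPM per kb in the controls, eighth of the 9, and was second in EAM. *Gbp3*, at 52.0 ± 8.19, *Gbp7*, at 54.2 ± 8.63, and *Ifi47*, at 64.8 ± 13.3, were the lowest in EAM, and their values overlapped within their spread. Exon lengths come from an annotation newer than the one used for counting, so these levels are approximate.

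At D10 no member passed the test, and neither did any of 15029 genes (background 0% in either direction). All 9 members nevertheless had an unadjusted p under 0.05 in edgeR's test, with EAM higher, against 9.71% of all genes, and all 9 had a mean at least 2-fold higher, against 4.69%. Their adjusted p was 0.328 for each. Calling no gene at D10 departs from the paper, which with the same limits describes a group of genes induced from D10 on. The cause of the departure was not tested. DESeq2 called 1 of the 9, *Gm4841*, against 0.319% of all genes, and limma-voom 0, against 0%, with an unadjusted p under 0.05 for 4 of the 9 and a median log2 fold change of 1.58, against 2.3 in edgeR's fit. The 4 EAM hearts of this day were unlike each other.

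The first D10 EAM heart was at or above the D15 levels and the second at control level. *Gbp2* was at 556, 47.3, 129 and 49.1 CPM in the 4 EAM hearts and at 31.7 to 43.9 CPM in the controls (log2 fold change 2.3 ± 0.76). *Igtp* was at 748, 47.7, 381 and 83.2 CPM in EAM and at 18.7 to 59.0 CPM in controls (log2 fold change 2.90 ± 0.82). *Gm4841* was at 882, 5.27, 350 and 44.1 CPM in EAM and at 1.98 to 10.4 CPM in controls (log2 fold change 5.87 ± 1.41). In the first heart, 6 of the 9 members were above the highest D15 EAM heart and the other 3 within the D15 EAM range, whereas in the other 3 hearts all 9 were below that range. In the third heart all 9 members were above every D10 control. In the fourth, 7 of 9 were above every control, by small amounts for most, with *Gm4841* at 8.15-fold the control mean. In the second, 4 of 9 were above every control, and the median member was at 1.14-fold the control mean.

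*Irgm1* (488, 46.6, 190 and 56.2 CPM in the D10 EAM hearts, 32.6 to 45.6 CPM in controls) and *Ifi47* (206, 12.3, 44.5 and 13.7 CPM, controls 6.81 to 10.8 CPM) had the same order of hearts. *Iigp1* was at 1266, 94.6, 588 and 144 CPM in EAM and at 54.9 to 137 CPM in controls, so its second EAM heart lay within the control range. *Irgm2* was at 436, 74.9, 250 and 79.5 CPM, *Gbp3* at 224, 26.6, 68.0 and 29.4 CPM and *Gbp7* at 369, 53.5, 107 and 58.4 CPM. Without the first EAM heart the median log2 fold change of the 9 members fell from 2.3 to 1.25, with a range of 0.45 for *Gbp7* to 4.60 for *Gm4841*, and 0 of 9 passed the test, against 0% of all genes.

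The GTPase genes and the leukocyte marker did not rise in proportion from heart to heart. In the third D10 EAM heart the median member was at 4.65-fold the same-day control mean and *Igtp* at 9.09-fold, whereas *Ptprc* was at 1.82-fold. In the first, the median member was at 13.7-fold and *Ptprc* at 6.20-fold. In the 4 D15 EAM hearts the median member was at 8.45-fold to 11.8-fold and *Ptprc* at 13.6-fold to 17.0-fold, so the order was the other way round. The *Ptprc* mean of the controls was 31.2 CPM at D10 and 18.0 CPM at D15, so its folds at D15 are taken against a lower level. The third D21 EAM heart had a median member at 1.08-fold and *Ptprc* at 2.19-fold. These ratios describe single hearts and rest on *Ptprc* alone. Other leukocyte markers were not compared in this way, and no ratio was tested.

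**Figure D3:**
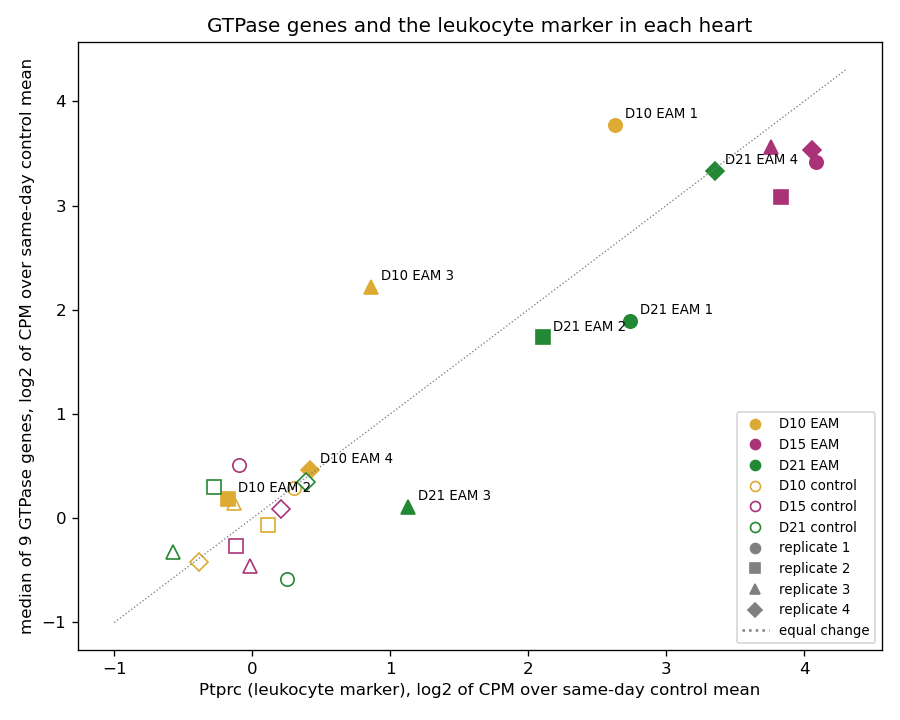
Each of 24 hearts by the log2 of Ptprc CPM over its same-day control mean (x axis) and the median of the same quantity over the 9 GTPase genes (y axis), EAM filled and controls open, with a dotted line of equal change. D10 EAM replicates 1 and 3 lie above the line at 3.77 and 2.22 on the y axis, and D21 EAM replicate 3 lies below it at 0.11.

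At D21 the members were higher in EAM on average, but none passed the test, against a background of 4.13% of 15266 genes called higher. With an unadjusted p under 0.05 there were 8 of 9, against 25.2% of all genes, and the adjusted p ran from 0.0133 for *Irgm1* to 0.115 for *Irgm2*. DESeq2 called 6 of the 9, against 8.93% of all genes, and limma-voom 0, against 0.524%. The log2 fold changes were 2.62 ± 0.57 for *Irgm1*, 2.26 ± 0.72 for *Igtp* and 3.54 ± 0.98 for *Gm4841*, and the smallest was 1.16 ± 0.47, for *Gbp7*. With *Irgm2* (1.19 ± 0.54), *Gbp3* (1.41 ± 0.44), *Iigp1* (1.61 ± 0.65), *Gbp2* (2.33 ± 0.55) and *Ifi47* (2.80 ± 0.67), all 9 estimates were above 1, against 10.1% of all genes.

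The wide errors went with the hearts. *Irgm1* was at 282, 266, 95.8 and 747 CPM in the D21 EAM hearts and at 38.9, 71.9, 48.3 and 73.9 CPM in the controls. *Igtp* was at 367, 371, 106 and 992 CPM in EAM and at 34.5, 148, 55.9 and 156 CPM in controls, so EAM replicate 3 lay within the control range. *Gbp2* was at 156, 127, 51.2 and 414 CPM in EAM and at 32.8 to 41.9 CPM in controls. The fourth EAM heart was above the highest D15 EAM heart for the 5 genes *Irgm1*, *Irgm2*, *Igtp*, *Iigp1* and *Gm4841*, and within the D15 EAM range for *Gbp2*, *Gbp3*, *Gbp7* and *Ifi47*. In the third, only *Gbp2* and *Irgm1* were above every control of the day. Without the third EAM heart, 6 of the 9 passed the test, against 9.78% of all genes in that fit (*Gbp2*, *Gbp3*, *Irgm1*, *Igtp*, *Ifi47* and *Gm4841*), and the members' median moved from 2.26 to 2.57 on the log2 scale. Without the fourth it was 1.54 and none passed, against 1.98% of all genes.

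*Iigp1* was at 457, 483, 131 and 1272 CPM in the D21 EAM hearts and at 92.8, 269, 137 and 287 CPM in the controls, and *Gm4841* at 227, 248, 50.3 and 915 CPM against 5.85, 51, 16 and 55 CPM. For both genes the third EAM heart lay inside the control range. *Ifi47* was at 51.8, 43.9, 12 and 153 CPM in EAM and at 7.71 to 12.2 CPM in controls.

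**Figure D4:**
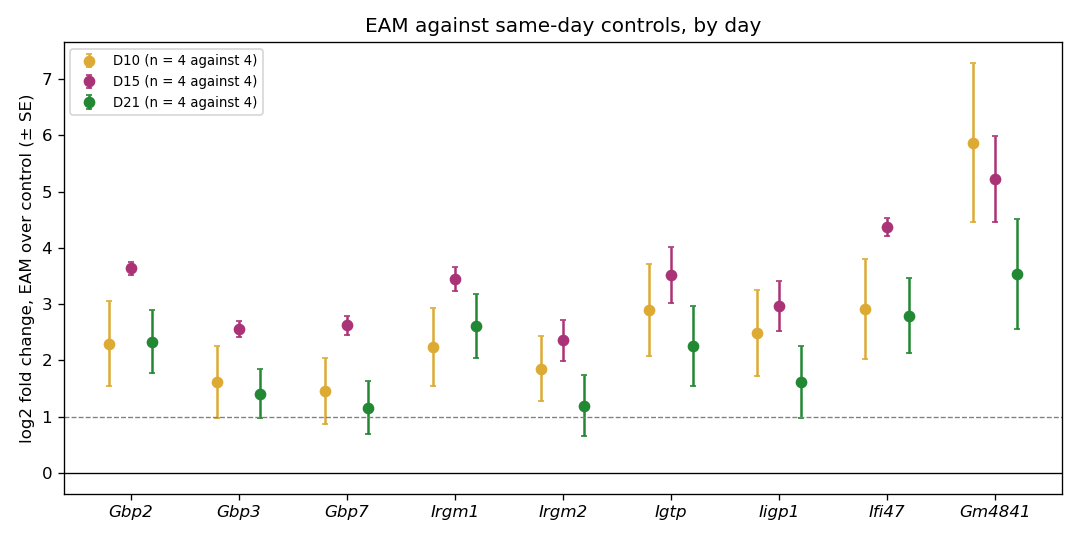
Log2 fold change of EAM over same-day controls (y axis, ± SE, n = 4 against 4) for 9 GTPase genes at D10, D15 and D21, with a dashed line at 1. D15 estimates have the smallest errors, such as 3.63 ± 0.12 for Gbp2, and D10 and D21 estimates lie above 1 with wide errors.

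Whether the EAM effect itself changed between days was tested in a fit of all 24 hearts. From D10 to D15 no member passed (background 5.38% called up), and the differences ran from −0.69 ± 1.51 on the log2 scale for *Gm4841* to 1.41 ± 0.97 for *Ifi47*. From D15 to D21 the estimates were below 0 for all 9, from −1.7 ± 1.47 for *Gm4841* to −0.83 ± 0.80 for *Irgm1*, and none passed (background 0.919% called down). An unadjusted p under 0.05 was reached by 0 of 9 for a rise from D10 to D15 (24% of all genes) and by 1 of 9 for a fall from D15 to D21 (17.3%), and DESeq2 and limma-voom called 0 for both steps. The intervals are wide: for *Igtp* the 95% interval ran from −1.44 to 2.59 for the first step and from −3.28 to 0.75 for the second. Without the first D10 EAM heart, 4 of 9 passed for the first step, against 12.3% of all genes in that fit, the 3 guanylate-binding protein genes and *Ifi47*, with differences of 2.67 ± 0.60 for *Gbp2*, 1.97 ± 0.51 for *Gbp3*, 2.13 ± 0.51 for *Gbp7* and 2.97 ± 0.75 for *Ifi47*. That of *Gm4841* changed sign, to 0.58 ± 1.47, and that of *Iigp1* went from 0.43 ± 0.96 to 1.36 ± 0.90. For the second step, *Irgm1* went to −1.53 ± 0.76 and *Gm4841* to −2.73 ± 1.49 without the fourth D21 EAM heart, and *Irgm1* to −0.52 ± 0.76 without the third, with all 9 below 0 and none passing in either case.

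The control hearts differed among themselves to unequal degrees over the members. Over the 12 controls, *Gm4841* ran from 1.98 to 55 CPM, a 27.7-fold range, *Igtp* from 16.8 to 156 CPM, 9.25-fold, *Iigp1* from 46.2 to 287 CPM, 6.22-fold, and *Irgm2* from 30.1 to 154 CPM, 5.11-fold. Of 13892 genes with at least 1 CPM, 2.22% had a range of 5-fold or more, and the median range was 1.38-fold. *Gbp2* ranged 1.44-fold, *Gbp3* 1.58-fold, *Gbp7* 1.7-fold, *Ifi47* 1.80-fold and *Irgm1* 2.27-fold, all of them above that median. A wider range than that of *Gbp2* was found for 42.3% of genes, of *Gbp3* for 31.7%, of *Gbp7* for 25.3%, of *Ifi47* for 21.6% and of *Irgm1* for 11.4%. The highest values of the 4 variable genes were in D21 controls 4 and 2 and D15 control 1, and the lowest in D10 control 4 and D15 control 3.

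Of the other GTPase genes, *Gvin1* ranged most (0.974 to 90.3 CPM, 92.7-fold) and was highest in D21 control 4 and D15 controls 2 and 4. *F830016B08Rik* (21.9 to 375 CPM, 17.1-fold), *Gm12250* (2.71 to 23.0 CPM, 8.49-fold) and *Gm12185* (0.466 to 2.88 CPM, 6.18-fold) also ranged over 5-fold in the controls, and the other 12 ranged 1.38-fold to 3.42-fold. *Ptprc* ranged 2.57-fold, with its highest value in the first D10 control, where *Igtp* was at 59.0 CPM, and it was at 16.8 CPM in the first D15 control, where *Igtp* was at 110 CPM. Of other interferon-gamma targets, *Nlrc5* ranged 3.40-fold (5.09 to 17.3 CPM) and *Tap1* 2.91-fold (13.5 to 39.2 CPM), both highest in D21 controls 4 and 2 and D15 control 1, and the chemokine gene *Cxcl9* ranged 2.14-fold (1.65 to 3.54 CPM). The median range of 20 type I interferon-stimulated genes was 1.51-fold, and the widest was 5.51-fold, for *Oas3*. Since the highest and lowest hearts were singled out by their values, this is a description and no test.

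Between days, no member passed the test in controls in either direction (background at D15 against D10 of 0% of 15311 genes higher and 0.0718% lower, and at D21 against D10 of 0.607% higher and 0.353% lower). An unadjusted p under 0.05 was reached by 1 of 9 for lower levels at D15 than D10 (8.37% of all genes) and by 6 of 9 for higher levels at D21 than D10 (14.9%), and DESeq2 and limma-voom called 0 higher at D21. The estimates at D21 against D10 were 2.55 ± 0.82 on the log2 scale for *Gm4841* (adjusted p = 0.0611, edgeR), 1.23 ± 0.55 for *Igtp*, 1.09 ± 0.45 for *Iigp1* and −0.05 ± 0.10 for *Gbp2*. EAM of each day is compared with controls of that day only, so these estimates enter the differences between days given above.

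**Figure D5:**
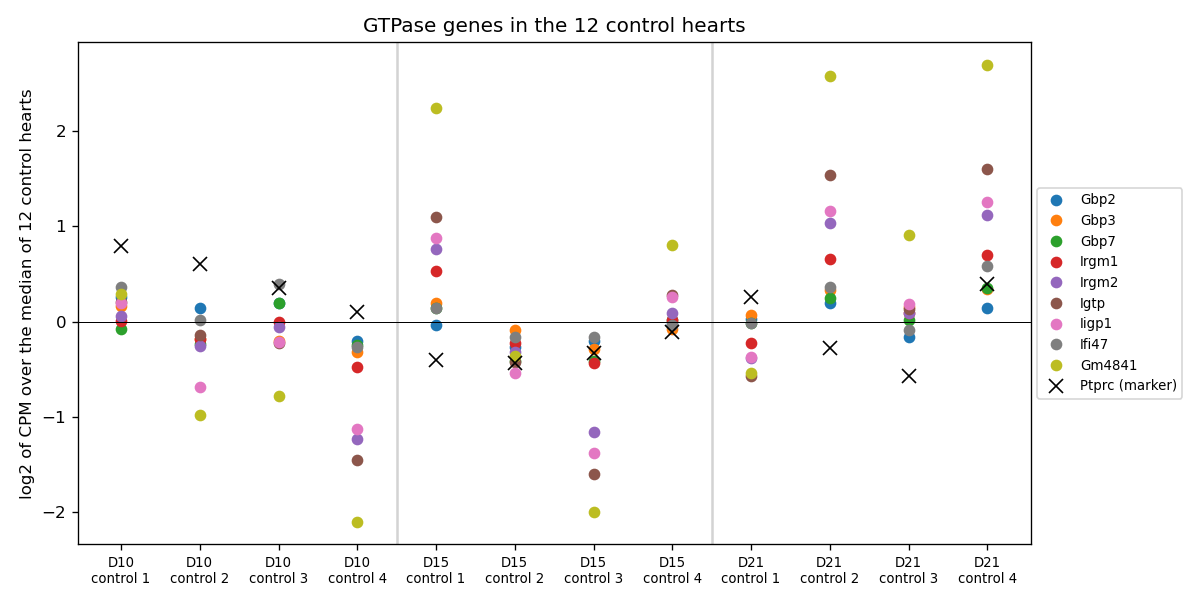
Log2 of CPM over the median of the 12 control hearts (y axis) for 9 GTPase genes and, as crosses, Ptprc, heart by heart. Gm4841, Igtp, Iigp1 and Irgm2 spread widely, highest in D21 controls 2 and 4 and D15 control 1, while Gbp2 stays near 0 with a 1.44-fold range.

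Of 18 other interferon-inducible GTPase genes listed, 16 were found, and 13 of the 16 rose at D15, against 18.1% of all genes. *Gbp8* rose most (log2 fold change 5.64 ± 0.28), followed by *Gm12185* (4.54 ± 0.40), *Gm12250* (4.24 ± 0.39), the feature *Gbp2b* (4.23 ± 0.10), *Gm4951* (4.0 ± 0.13), *Gbp11* (3.53 ± 0.33), *Tgtp1* (3.26 ± 0.30), *Mx1* (3.11 ± 0.31), *Tgtp2* (2.91 ± 0.20), *F830016B08Rik* (2.52 ± 0.69), *Gbp4* (2.48 ± 0.19), *9930111J21Rik1* (2.16 ± 0.57) and *Gbp9* (1.23 ± 0.14). *Mx2* (0.55 ± 0.15), *9930111J21Rik2* (0.45 ± 0.25) and *Gvin1* (−0.08 ± 1.25) did not pass. *9930111J21Rik1* had 883, 204, 197 and 204 reads in the D15 EAM hearts and 76, 47, 72 and 56 in the controls. Its rise was thus far larger in EAM replicate 1 than in the others. *Gbp6* and *Gbp10*, like *Gbp5*, were not matched. The older gene models behind the counts were not used here, so which of the neighbouring *Gbp* genes on chromosome 3 the reads of *Gbp2b* came from cannot be said. *Tgtp1* and *Tgtp2* share 77.2% and 81.4% of their words with other genes, *9930111J21Rik1* 76.0%, *9930111J21Rik2* 52.1% and *Gvin1* 98.3%, and their values are uncertain for that reason. At D21, *Gbp8* alone of the 16 passed (4.39 ± 0.86, adjusted p = 0.00984, edgeR), a share near the 4.13% of all genes. At D10 none passed, and 10 of 15 tested had an unadjusted p under 0.05 with EAM higher, against 9.71% of all genes.

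The atlastins are membrane-shaping GTPases related in structure to the guanylate-binding proteins and not known as interferon targets. None reached the 2-fold limit at D15, with log2 fold changes of 0.88 ± 0.07 for *Atl3*, −0.68 ± 0.10 for *Atl2* and −0.79 ± 0.13 for *Atl1*.

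Transcripts of the ligand followed a like order of hearts. *Ifng*, which encodes interferon-gamma, was at 0, 0.0591, 0.0518 and 0 CPM in the D15 controls, 0 or 1 read each, and at 5.0, 2.38, 6.50 and 4.55 CPM in the EAM hearts. At D10 it was at 5.66, 0, 0.668 and 0.106 CPM in the 4 EAM hearts, and at D21 at 0.740, 0.709, 0.0669 and 3.26 CPM, so the first D10 and the fourth D21 heart were highest for *Ifng* as for the members. *Ifna2* and *Ifna4* had 0 reads in all 24 libraries, which at 3 reads per library allows up to 0.190 reads in 1000000 in the shallowest library, before TMM scaling, a limit that covers counting error only. *Ifnb1* had 1 read in 1 library and 0 in the rest.

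Of the receptor genes, *Ifnar1* (log2 fold change 1.22 ± 0.09) and *Ifnar2* (1.36 ± 0.09) rose at D15. *Ifngr1*, the ligand-binding chain of the interferon-gamma receptor, stayed below the 2-fold limit at 0.85 ± 0.10, and *Ifngr2*, the signalling chain, was at −0.73 ± 0.08. Of 13 signal transducer genes, 12 rose at D15, against 18.1% of all genes. They included *Irf1* (2.82 ± 0.11), *Irf8* (3.47 ± 0.11), *Socs3* (4.73 ± 0.12) and *Socs1* (4.85 ± 0.24), an inhibitor of JAK kinases that is itself induced. *Jak1* did not pass (0.39 ± 0.07).

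All 18 other interferon-gamma targets rose at D15, when 18.1% of all genes did. The median of their log2 fold changes was 3.45, and they were led by the chemokine genes *Cxcl11* (8.21 ± 0.29), *Cxcl10* (7.03 ± 0.38) and *Cxcl9* (6.94 ± 0.15). Of the 20 type I interferon-stimulated genes, 17 rose, with a median of 1.86, led by *Zbp1* (5.04 ± 0.12), *Oas3* (4.89 ± 0.17) and *Isg15* (2.53 ± 0.16). At D21, 7 of the 18 and 1 of the 20 passed, against 4.13% of all genes, so the latter share is near the background. At D10 none of either passed, with an unadjusted p under 0.05 for 14 of the 16 tested and 9 of the 20, against 9.71% of all genes. Many genes answer to both interferons, so the lists are not exclusive.

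The autophagy conjugation machinery is needed to place the immunity-related GTPases on vacuoles, and of its 13 genes none rose at D15 and 1, *Map1lc3a*, fell (log2 fold change −1.24 ± 0.14), against 18.1% and 12.9% of all genes, with *Atg5* at 0.62 ± 0.09, *Atg3* at 0.52 ± 0.07 and *Atg7* at 0.47 ± 0.08 the highest. The median of the 13 was −0.18, and −0.03 with libraries scaled to their total counts. An unadjusted p under 0.05 was reached by 4 with EAM higher and 7 with EAM lower, against 6122 and 5847 of all 15693 genes. Of the inflammasome genes that act after guanylate-binding proteins, 8 of 8 rose, led by *Il1b* (5.95 ± 0.21), *Nlrp3* (4.89 ± 0.14) and *Casp1* (2.91 ± 0.11).

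The cell type markers moved with the members at D15, when 18.1% of all genes were called higher. Of the T cell markers 8 of 8 rose, led by *Cd2* (5.06 ± 0.22), *Cd4* (4.85 ± 0.25) and *Trbc2* (4.82 ± 0.26), and the summed level went from 2.42 to 3.78 CPM in controls to 49.6 to 76.3 CPM in EAM. Of the NK cell markers 5 of 5 rose, led by *Klrk1*, *Eomes* and *Klrb1c*, and the sum went from 0.984 to 2.45 CPM to 23.1 to 49.6 CPM. Of the monocyte and macrophage markers 8 of 8 rose, led by *Itgam* (4.94 ± 0.23), *Cd14* and *Cd68*, and the sum went from 513 to 582 CPM to 3216 to 4881 CPM. Of the neutrophil markers 6 of 6 rose, led by *Mpo*, *Csf3r* and *S100a9*, and the sum went from 15.1 to 74.8 CPM to 474 to 754 CPM. Of the B cell markers, *Cd79b* rose and *Cd79a* did not pass. No marker was at 0 reads in all libraries.

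Of the fibroblast markers 1 of 5 rose, *Col1a1* (4.45 ± 0.36), against 18.1% of all genes. *Pdgfra* was at 0.73 ± 0.08, *Lum* at 0.54 ± 0.16, *Dcn* at 0.17 ± 0.11 and *Tcf21* at −0.36 ± 0.20. *Col1a1* alone went from a mean of 186 CPM to 3953 CPM, and the sum was at 1258 to 1462 CPM in D15 controls and 3139 to 6453 CPM in EAM. Of the endothelial markers none rose and *Kdr* fell (−1.24 ± 0.11), against 12.9% of all genes called lower. *Pecam1*, *Emcn* and *Cdh5* did not pass, and the sum was at 1031 to 1351 CPM and 703 to 786 CPM. Of the cardiomyocyte markers *Ttn* (−1.07 ± 0.29), *Tnni3* (−1.33 ± 0.23) and *Myl2* (−1.33 ± 0.24) fell, with *Tnnt2*, *Actn2*, *Ryr2* and *Myh6* (−1.38 ± 0.41, adjusted p = 0.0121, edgeR) not passing. The median of the 7 was −1.07 on the log2 scale, and −0.93 with libraries scaled to their total counts.

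The markers also moved at D21, when 4.13% of all genes were called higher. Of the T cell markers 8 of 8 rose, with a median log2 fold change of 3.83, and their sum was at 3.55 to 4.56 CPM in controls and 20.3 to 74.3 CPM in EAM. Of the NK cell markers 3 of 4 tested rose, with sums of 1.59 to 3.23 CPM and 7.09 to 46.0 CPM, and of the monocyte and macrophage markers 5 of 8, with sums of 460 to 709 CPM and 1227 to 4068 CPM. Of the endothelial markers none passed, and 5 of 6 had an unadjusted p under 0.05 with EAM lower, against 21.2% of all genes. At D10 no marker passed, and the T cell sum was at 3.15 to 5.77 CPM in controls and 4.08 to 32.2 CPM in EAM, the NK cell sum at 1.29 to 2.51 CPM and 2.27 to 27.4 CPM, and the monocyte and macrophage sum at 533 to 1131 CPM and 824 to 2817 CPM. The part of these cells in the GTPase values was not tested at any day.

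The 8 genes outside the members whose profile over the 24 hearts was nearest to theirs were named by the root mean square deviation of centred log2(CPM + 1) from the members' mean, among 14206 genes. They were *Tap1* (0.22), which encodes a peptide transporter of antigen presentation, *Gm12185* (0.30), *Nlrc5* (0.34), an activator of MHC class I genes, *Cd274* (0.36), which encodes PD-L1, the immunoproteasome subunits *Psmb9* (0.39) and *Psmb8* (0.40), *Tgtp2* (0.42) and *Gm4951* (0.43). The members themselves ran from 0.22 for *Irgm1* to 1.34 for *Gm4841*, and the median of all genes was 1.57. *Tap1* was at 236, 22.9, 81.9 and 28.4 CPM in the D10 EAM hearts and at 267, 219, 264 and 275 CPM in the D15 EAM hearts. The 24 points share their libraries and day groups, so nearness is a description with no p.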

How the data were processed

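Read pairs of 75 bases were aligned by the authors to GRCm38 with HISAT2 2.0.4, duplicates were removed with Picard, and featureCounts assigned reads to Ensembl release 69 genes. The library kit marks strand, but the strand setting of the counting was not given in the sources used here. The deposited values are raw counts per gene, without normalization. Symbols were taken from GENCODE M21 by identifier (40254 of 41388 matched). The 92 spike-in features held 0 reads.

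The main fits used edgeR 4.0.16 under R 4.3.3. Per day, genes reaching 10 reads in 4 or more of 8 samples were kept, libraries were scaled by TMM, and 4 EAM hearts were compared with 4 controls by the quasi-likelihood test, with Benjamini-Hochberg adjustment over all genes and calls at an FDR under 0.01 with a change of 2-fold or more. Changes of effect were contrasts in a fit of 24 samples. The SE is the log2 fold change divided by the root of the F statistic. Alternatives used limma 3.58.1 and DESeq2 1.42.0. Tables and plots were made with matplotlib 3.10.9, numpy 2.4.6 and pandas 2.3.3 under Python 3.11.15. The main test was tried on simulated data for each comparison, and the alternatives were not. Each sample is a separate mouse.

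The members and all gene lists were chosen with earlier results of these data known. Named were all members, every matched gene of the other GTPase, atlastin, interferon and receptor lists, *Ptprc*, *Irf1* and *Socs1*, of each other list the 3 genes with the largest D15 fold change and every gene called lower, and the 8 nearest profiles. *Jak1*, *Myh6*, *Dcn* and *Tcf21*, outside this rule, were named to complete a count, after their values were seen. Some genes that this rule names are not reported here. Proteins were not analysed here.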

Additional observations from a re-analysis of the deposited data

Results flagged for a closer look

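In 3 of 54 group and gene combinations of 4 hearts, 1 heart stood farther from the rest than Dixon's 95% limit allows. All 3 were the first EAM heart of D10: *Gbp2* at 556 CPM (next highest 129), *Gbp7* at 369 CPM (next 107) and *Ifi47* at 206 CPM (next 44.5). Chance alone flags about 1 group in 20, and the genes share their hearts, so the 3 are not independent.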

How the results depend on the processing

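At D15, the 9 calls stood under every alternative run (171 of 171 values for single genes kept their side of the limits). No alternative reversed a direction of EAM against controls at any day. At D10 the count of called members was 1 (*Gm4841*) with the likelihood ratio test and with DESeq2 (0.299% and 0.319% of all genes called), and 7 with all 12 control hearts as controls (4.07%). It was 0 with any 1 heart left out. At D21 it was 6 at FDR under 0.05 with no fold limit (18.5% of all genes), with the likelihood ratio test (8.88%) and with DESeq2 (8.93%), 1 with no filter on low counts (3.54%), 9 with all 12 controls (10.1%), 3 in a fit of all 24 samples (9.28%) and 0 to 6 over the hearts left out (0% to 9.78%). For the change of effect from D10 to D15 the count ran from 0 to 4 over the hearts left out (2.98% to 12.3%). The cause was not tested. The newer form of the quasi-likelihood test, added after the data were seen, gave 0, 9 and 0, and the count of members higher in D21 than D10 controls, also added, was 0 throughout. The labels name no pairs, and the replicate numbers were not taken as pairs. Same-numbered EAM and control hearts correlated by over 0.1 in 2 of 4, 0 of 4 and 3 of 4 pairs at D10, D15 and D21. These correlations do not decide the matter. With a replicate block the counts of called members were 0, 9 and 0, with a D10 median log2 fold change of 1.60. Depth limits the reading of *Ifng*, at 0 or 1 read in the D15 controls.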
